A study of Mus musculus with 16 samples.

Results

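A group of 10 genes of the BCL2 family were followed in microglia of the 5xFAD mouse, a model of Alzheimer's disease: the survival genes Bcl2, Bcl2l1, Mcl1, Bcl2a1a, Bcl2a1b and Bcl2a1d, and the death genes Bcl2l11, Bid, Bax and Bak1. They were taken by symbol, and all 10 were found among the 17951 genes listed, 6 of them survival members and 4 death members. The data were 16 RNA-seq libraries of microglia sorted as live, single cells positive for Cd11b, Cd45 and Cx3cr1, from mice that had all been injected with methoxy-X04 (Me-X04), a dye that enters the brain and binds amyloid. Wild-type mice (WT, given as wild type within the 5xFAD strain, 2 months old by the labels) gave 7 libraries, and transgenic mice (TG, 6 months old by the labels) gave 5 libraries of cells without the dye (TG Me-X04-) and 4 of cells that had taken it up (TG Me-X04+). The 5xFAD transgenes carry familial Alzheimer's mutations and are under a neuronal Thy1 promoter, so microglia meet the amyloid but are not the cells in which the transgenes are driven. Of the TG animals, 4 gave both a TG Me-X04- and a TG Me-X04+ library under the same animal label. Age and genotype cannot be told apart in any comparison with WT, and the study's methods give other ages than the labels.

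BCL2 family proteins decide whether the outer membrane of mitochondria is opened, the step at which cytochrome c is released and caspases are activated. BAX and BAK (gene Bak1) form the pores, the BH3-only proteins BIM (gene Bcl2l11) and BID set them off, and BCL-2, BCL-XL (gene Bcl2l1), MCL-1 and A1 (the Bcl2a1 genes) hold both in check. Microglia depend on signals through Csf1r and Trem2 to stay alive, and A1 is a family member typical of blood and myeloid cells that is switched on by inflammatory signals. Mouse A1 is made from several near-identical gene copies, 3 of which are members here.

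Libraries held between 15623664 and 27579017 reads on the listed genes, and the values are log2 RPKM, reads divided by gene length and by the scaled library size. Listed genes without a read numbered 55 to 1381 in WT, 83 to 703 in TG Me-X04- and 450 to 1831 in TG Me-X04+ libraries. The part of this in the results of members with few reads was not tested. The 10 microglial markers checked were listed in every library with a summed level of 4360 to 8360 RPKM, and 1 of them, Tmem119, was lower in the cells with the dye than in TG Me-X04- cells (difference in log2 RPKM -1.58, SE 0.32, adjusted p = 0.00821 by limma). Of other cell types, 0 of 8 T and NK cell markers, 3 of 6 B cell markers and 4 of 10 neutrophil markers were listed, and the summed markers of neurons, astrocytes, oligodendrocytes, endothelium or monocytes and border macrophages reached at most 29.2 RPKM in a library. Among these the endothelial marker Flt1 was called higher in the cells with the dye than in TG Me-X04- cells (3.55, adjusted p = 0.00608 by limma, from a mean log2 RPKM of -3.18 to 0.37), while Pecam1 and Cdh5 stood at 0.53 and -1.25 without the dye and at -1.94 and -3.67 with it, and their part in the results was not tested. Against WT, Flt1 was called higher, and Pecam1, Snap25, Ccr2, P2ry12 and Tmem119 were called lower, in TG Me-X04+ cells. After each gene was centred on its group means, the leading principal component (37.8% of the variance left) parted the libraries into set A (WT 1 to 3, both TG groups 1 and 2) and set B (all others), so each group had libraries in both. The labels name no batch, while the study's methods name 2 sequencers without saying which library ran on which. In these bulk libraries, fewer cells that express a gene and less RNA per cell cannot be told apart.

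The Bcl2a1 copies are shown first, because their likeness limits what each of the 3 values says. They lie on chromosome 9 of GRCm38, Bcl2a1d at chr9:88723285-88731914 on the minus strand, Bcl2a1a at chr9:88956900-88962419 and Bcl2a1b at chr9:89199209-89207827 on the plus strand. Their coding sequences of 519 bases differ at 12 positions among the copies, 7 of them within the first 120 bases. Those 120 bases of exonic coding sequence, read from the GENCODE M21 transcripts at chr9:88957051-88957170, chr9:89199360-89199479 and chr9:88731600-88731719, are given here 5′ to 3′ from the start codon, with capitals at the positions where the copies are not all the same.
Bcl2a1a: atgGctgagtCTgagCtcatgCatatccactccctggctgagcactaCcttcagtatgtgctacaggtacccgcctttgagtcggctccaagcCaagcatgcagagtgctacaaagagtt
Bcl2a1b: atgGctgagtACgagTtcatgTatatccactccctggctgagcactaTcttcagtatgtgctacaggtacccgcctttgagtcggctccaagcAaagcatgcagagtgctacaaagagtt
Bcl2a1d: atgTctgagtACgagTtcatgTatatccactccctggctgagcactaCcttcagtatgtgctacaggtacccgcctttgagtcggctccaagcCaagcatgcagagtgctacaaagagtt
Only the stretches around the capitals tell the copies apart. Over the whole coding sequence, Bcl2a1a and Bcl2a1b differ at 11 bases, Bcl2a1a and Bcl2a1d at 7, and Bcl2a1b and Bcl2a1d at 6. Of all words of 50 bases in each transcript, 31.0% in Bcl2a1a, 20.8% in Bcl2a1b and 20.5% in Bcl2a1d occur in no transcript of another gene. With words of 75 bases these shares are 44.8%, 31.6% and 32.4%. The 2 word lengths are those of the reads on the 2 sequencers. Bcl2a1b also shares 401 of its exonic bases (49.1%) with Gm29094, an annotated coding gene on the same strand, which stood at a mean log2 RPKM of 4.15 in WT, 4.42 in TG Me-X04- libraries and 5.52 in TG Me-X04+. The 3 values are therefore given as uncertain in how they split reads, and the sum of the copies is given beside them.

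The DNA before the copies is alike as well, and in the stretch shown it is the same in Bcl2a1a and Bcl2a1b. These stretches of 80 bases come from the RefSeq promoters on GRCm38.p6 (chr9:88956770-88956849, chr9:89199079-89199158 and chr9:88731915-88731994 on the minus strand) and lie before the transcripts annotated by GENCODE. Capitals mark GAGGAA on the strand shown, the core bound by the myeloid factor PU.1.
Bcl2a1a: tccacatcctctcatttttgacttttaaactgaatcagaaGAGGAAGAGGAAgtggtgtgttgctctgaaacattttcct
Bcl2a1b: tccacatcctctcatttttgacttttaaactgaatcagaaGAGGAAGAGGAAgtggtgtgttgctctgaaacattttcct
Bcl2a1d: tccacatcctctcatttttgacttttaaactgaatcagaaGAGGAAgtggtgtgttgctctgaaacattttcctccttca
Bcl2a1a and Bcl2a1b hold 2 abutting copies of GAGGAA where Bcl2a1d holds 1, and each gene has 1 more on the other strand nearby. Searched on both strands over the 250 bases before the start, GAGGAA was present in 23.3% of all 32851 RefSeq promoters, and 2 abutting copies were present in 33 of them. Of the other members, 1 match each was found for Bcl2, Bid and Bak1, and none for Mcl1, Bcl2l1, Bcl2l11 and Bax.

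In TG Me-X04+ against TG Me-X04- microglia, which asks what goes with uptake of amyloid within the diseased brain, 4 of the 6 survival members rose and 1 of the 4 death members fell. Bcl2, Bcl2a1a, Bcl2a1b and Bcl2a1d were between 2.26 and 2.99 times as high in the cells with the dye, and Bid, the BH3-only activator cut by caspase-8, was at 0.415 of its level. Mcl1, Bcl2l1, Bcl2l11, Bax and Bak1 were not called in either direction. Calls required a log2 fold change (log2FC) of 0.7 or more in size together with an adjusted p below 0.05 by limma on all genes, which called 3.44% of all genes higher and 2.06% lower. The groups did not overlap for these 5 members, against 7.93% of all genes whose groups did not overlap. The median log2FC was 1.33 over the survival members and -0.47 over the death members, beside -0.09 over all genes tested. The Bcl2a1 copies share much of their sequence, so their calls and their weight in the survival median are not separate evidence. Summed into 1 feature they gave a log2FC of 1.5, beside 1.48 for Bcl2, 0.07 for Mcl1 and -0.33 for Bcl2l1. Of all calls 62.6% were higher, against 50.8% after quantile normalization and 20.8% after scaling by reads outside mitochondrial genes. That scaling moved the median of all genes to -0.49. It shifts the log2FC of every gene by the same amount, so it cannot change the distance of a member from that median. The survival and death medians minus that of all genes were 1.42 and -0.37 in the main fit. With quantile normalization they were 1.04 and -0.52.

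**Figure D1:**
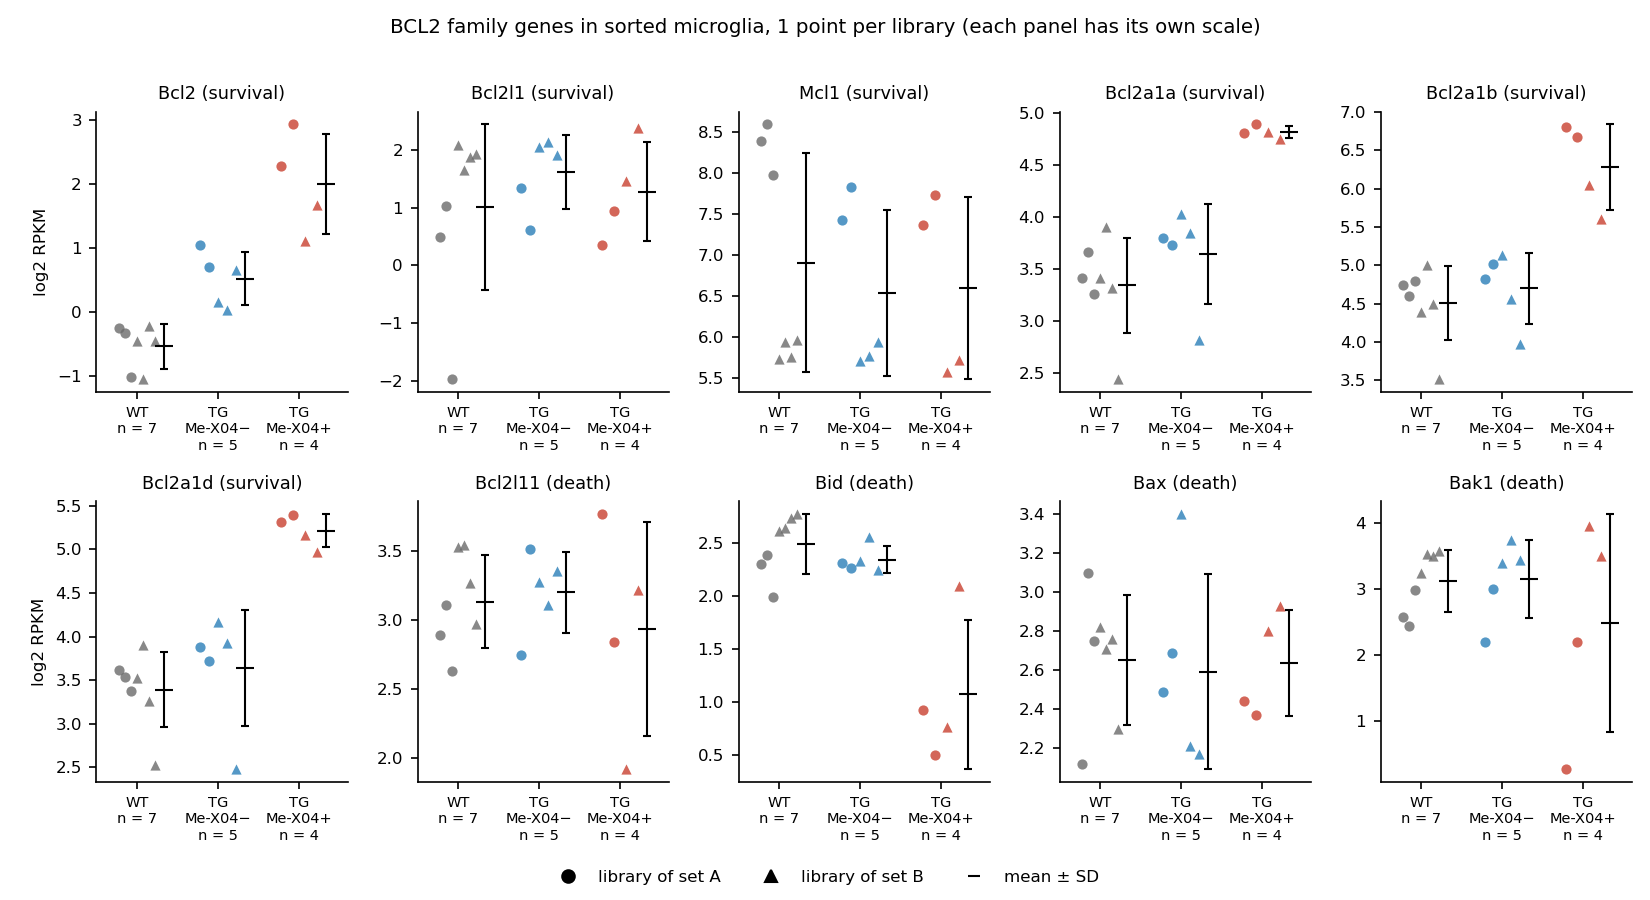
Log2 RPKM of the 10 members (vertical axes, a scale per panel) in microglia of the 3 groups, with 1 point per library, circles for set A, triangles for set B, and bars for mean ± SD. Bcl2 and the Bcl2a1 genes are higher and Bid is lower in every TG Me-X04+ library than in any TG Me-X04- library, while Mcl1 parts by set in all 3 groups.

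Bcl2, the founding survival gene (chr1:106538178-106714274, minus strand), had the lowest WT mean of the survival members and a separate range in each group. In the 7 WT libraries its log2 RPKM ran from -1.05 over a median of -0.45 to -0.22. The TG Me-X04- libraries 1 to 5 read 1.05, 0.71, 0.16, 0.03 and 0.65. The TG Me-X04+ libraries 1 to 4 read 2.28, 2.94, 1.11 and 1.68. Every TG Me-X04- library thus lay above every WT library and below every TG Me-X04+ library, with library 1 of the former and library 3 of the latter nearest to each other. The means were -0.54 ± 0.35 (SD, n = 7), 0.52 ± 0.42 (n = 5) and 2.00 ± 0.79 (n = 4), from 66 to 196, 234 to 351 and 449 to 1054 reads per library. TG Me-X04+ cells exceeded TG Me-X04- cells by a log2FC of 1.48 (SE 0.39, adjusted p = 0.0328 by limma), and the rise was seen in 4 of 4 animals, by 1.23, 2.23, 0.95 and 1.66. This call was close to the threshold. With the replicate number as a block it was lost (1.45, adjusted p = 0.0554 by limma), as it was in 10 of 27 alternatives in all, among them 5 of the 9 that left out a library: without TG Me-X04- 3, 4 or 5 or TG Me-X04+ 1 or 2, adjusted p rose to between 0.0662 and 0.11. Reads of Bcl2 overlap those of the antisense gene D630008O14Rik over 558 exonic bases, but that gene had at most 68 reads in a library.

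B cell markers are given beside Bcl2, since lymphocytes use BCL-2. Of these markers Ms4a1 and Pax5 were not listed, Cd79a and Cd79b stood at a mean log2 RPKM of -3.56 and 0.80 in TG Me-X04+ cells against -3.07 and 0.84 in TG Me-X04- cells, and Ighm at 7.71 against 6.75 (adjusted p = 0.0987 by limma). Against WT, where its mean was also 6.75, Ighm was called higher in TG Me-X04+ cells by 0.97 (adjusted p = 0.0398 by limma). The summed level of the list was 64.4 to 195 RPKM in TG Me-X04- libraries and 152 to 285 RPKM in TG Me-X04+ libraries. The part of such cells in the Bcl2 difference was not tested.

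The A1 genes moved as 1 block of values. Bcl2a1a read 3.80, 3.73, 4.03, 3.84 and 2.81 in the TG Me-X04- libraries 1 to 5, and 4.81, 4.89, 4.82 and 4.75 in the TG Me-X04+ libraries 1 to 4, all in log2 RPKM. The 7 WT libraries ran from 2.44 over a median of 3.41 to 3.90. Its TG Me-X04+ values were the most even of any member and group, with an SD of 0.06 around 4.82 (n = 4), and the log2FC over TG Me-X04- was 1.18 (SE 0.28, adjusted p = 0.0183 by limma). Without TG Me-X04+ 2 that call was just lost (1.15, adjusted p = 0.0502 by limma).

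Bcl2a1b was the highest of the copies in every library, with 44.6 to 62.1% of their summed RPKM. In TG Me-X04- libraries 1 to 5 it read 4.82, 5.02, 5.13, 4.56 and 3.97 log2 RPKM, and in TG Me-X04+ libraries 1 to 4 it read 6.80, 6.67, 6.04 and 5.60. WT values ran from 3.52 over 4.60 to 5.00. Even the lowest TG Me-X04+ library was above the highest of the other groups, and the log2FC was 1.57 (SE 0.32, adjusted p = 0.00719 by limma). Within animals the rise was larger in the pairs of set A, 1.98 and 1.64, than in those of set B, 0.91 and 1.04.

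Bcl2a1d read 3.88, 3.72, 4.17, 3.92 and 2.48 in TG Me-X04- libraries 1 to 5 and 5.32, 5.40, 5.17 and 4.97 in TG Me-X04+ libraries 1 to 4, with WT from 2.53 over 3.52 to 3.90 log2 RPKM. Its log2FC was 1.58 (SE 0.31, adjusted p = 0.00648 by limma), and all 4 animals showed the rise, by 1.00 to 1.67. TG Me-X04- 5 was low for each of the 3 copies, and WT 7 was the lowest WT library for each. With the reads of the copies summed into 1 feature, the log2FC was 1.5 (SE 0.29, adjusted p = 0.00603 by limma). The sum removes the question of how reads were split among the copies, but not that of sequence shared with other genes. Of the words of 50 bases, 207 of 770 in Bcl2a1a, 353 of 768 in Bcl2a1b and 216 of 814 in Bcl2a1d occur in a gene outside the 3 copies. Summed RPKM of the copies was 22.7 to 61.9 in WT, 28.3 to 69.4 in TG Me-X04- libraries and 107 to 179 in TG Me-X04+ libraries, so that every TG Me-X04+ library was above all others.

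Neutrophils also use A1, and of their markers Ly6g, Mpo, Elane, Retnlg, Camp and Ltf were not listed. Those that were, S100a8, S100a9, Csf3r and Ngp, had a summed level of 54.6 to 130 RPKM in TG Me-X04- libraries and 92.4 to 173 RPKM in TG Me-X04+ libraries, with 0 of 4 called. Csf3r made up most of that sum, at a mean log2 RPKM of 6.38 and 6.82, and S100a8, S100a9 and Ngp at -1.37, -0.99 and -1.5 in TG Me-X04- and 0.23, 0.73 and 0.02 in TG Me-X04+ cells, on at most 233 reads in a library. Their part in the A1 difference was not tested.

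Mcl1, a short-lived survival protein's gene (chr3:95658788-95663176, plus strand), had the highest mean of the members in each group and showed no called difference between groups. It read 7.42, 7.82, 5.70, 5.76 and 5.94 log2 RPKM in TG Me-X04- libraries 1 to 5, and 7.36, 7.73, 5.57 and 5.72 in TG Me-X04+ libraries 1 to 4. WT ran from 5.73 over 5.96 to 8.59. The high values were all from set A, at 7.36 or above, and those of set B were all at 5.96 or below, whatever the group. The difference of 2.13 between the sets, averaged over groups, was exceeded by 4.5% of all genes, and is a description, since the sets were found on these values. Between TG groups the log2FC was 0.07 with a 95% interval of -1.43 to 1.57, and within the 4 animals Mcl1 differed by -0.12 to -0.04.

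Bcl2l1, the gene of BCL-XL (chr2:152780668-152831728, minus strand), also parted by set, in the other direction. In TG Me-X04- libraries 1 to 5 it read 1.35, 0.61, 2.06, 2.15 and 1.91 log2 RPKM, and in TG Me-X04+ libraries 1 to 4 it read 0.35, 0.94, 1.46 and 2.38. WT values ran from -1.97, in WT 3 with 16 reads, over 1.66 to 2.09. No library of set A reached 1.46, the lowest of set B. The TG groups differed by -0.33 (95% interval -1.78 to 1.12), with 2 of 4 animals higher.

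**Figure D2:**
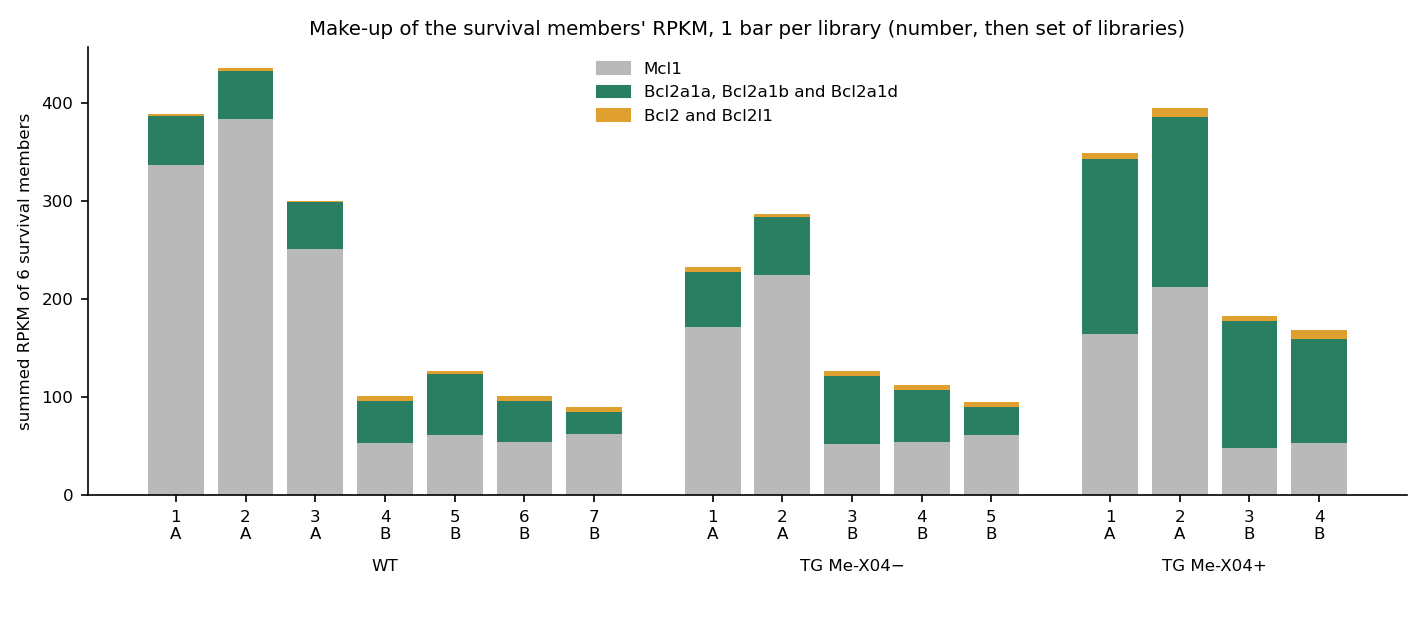
Summed RPKM of the 6 survival members (vertical axis, from 0) in each library, with the library number and its set below, split into Mcl1 (grey), the Bcl2a1 genes (green) and Bcl2 with Bcl2l1 (orange). The green part is 107 to 179 RPKM in TG Me-X04+ libraries and at most 69.4 RPKM in all others, whereas the grey part follows the set.

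RPKM is per length of gene, so the members were set side by side within a library. Much of the A1 sequence also occurs in other transcripts, so the A1 levels may not be on the scale of the other members. The shares and sums below carry that limit. Mcl1 made up 48.2 to 88.2% of the summed RPKM of the survival members in WT, 41.0 to 78.4% in TG Me-X04- libraries and 26.1 to 53.6% in TG Me-X04+ libraries. Without Mcl1, the other 5 summed to 27.3 to 65.6 RPKM in WT, 33.6 to 74.6 RPKM in TG Me-X04- libraries and 115 to 185 RPKM in TG Me-X04+ libraries. The TG Me-X04+ libraries were apart from both other groups in that sum without Mcl1, of which the Bcl2a1 copies made up most. With Mcl1, the 6 survival members summed to 89.5 to 436 RPKM in WT and 95 to 288 RPKM in TG Me-X04- libraries. In TG Me-X04+ libraries they summed to 168 to 395 RPKM, so the groups overlapped. For the 4 death members the sums were 22.6 to 36.1, 21.9 to 35.7 and 18.3 to 32.6 RPKM, which overlapped.

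**Figure D3:**
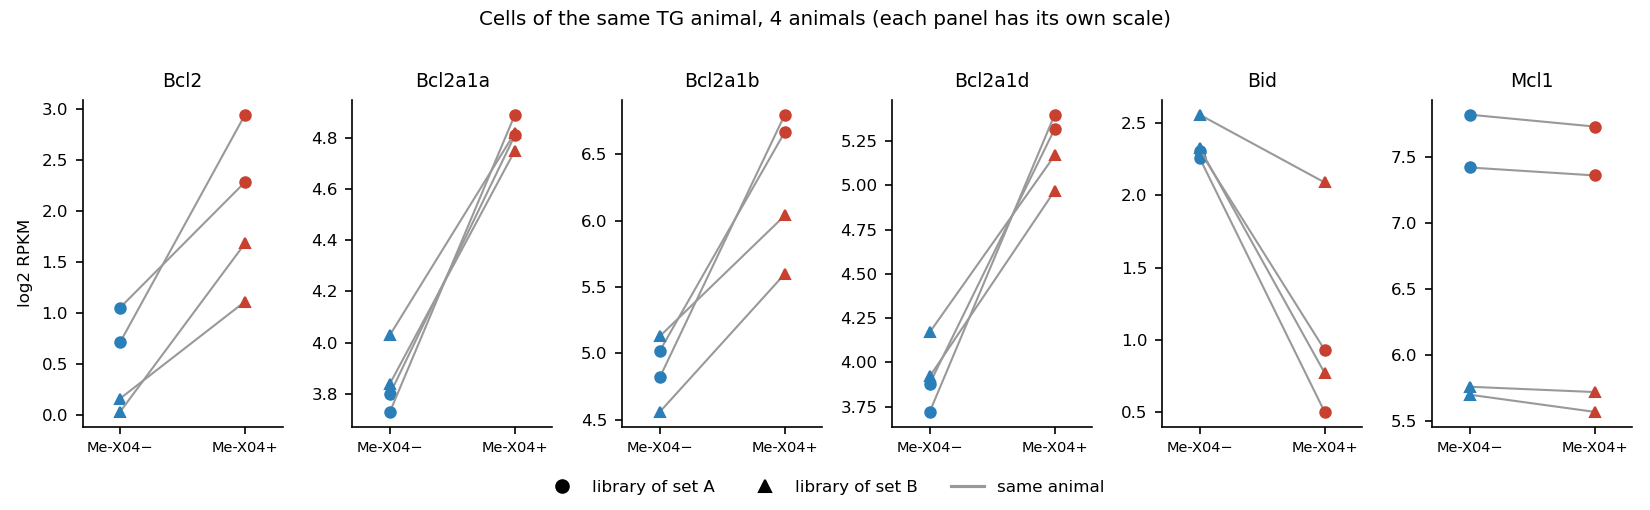
Log2 RPKM (vertical axes, a scale per panel) in cells without and with the dye from the same 4 TG animals, joined by lines, with circles for set A and triangles for set B. Bcl2 and the Bcl2a1 genes rise and Bid falls in 4 of 4 animals, and Mcl1 differs by -0.12 to -0.04 within an animal.

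Bid (chr6:120891930-120916853, minus strand), whose protein carries the death receptor signal to mitochondria, was the death member that fell. It read 2.31, 2.26, 2.33, 2.56 and 2.24 log2 RPKM in TG Me-X04- libraries 1 to 5 and 0.93, 0.50, 0.77 and 2.09 in TG Me-X04+ libraries 1 to 4. WT values ran from 1.99 over 2.61 to 2.77. Of the TG Me-X04+ libraries, 3 were far below all others, with 74 to 136 reads, and TG Me-X04+ 4, with 355 reads, was just under the lowest TG Me-X04- library. Bid fell by 1.27 (SE 0.29, adjusted p = 0.0166 by limma), and it was lower in 4 of 4 animals, with differences of -1.38, -1.76, -1.56 and -0.47. Without TG Me-X04+ 2 the call was lost (-1.08, adjusted p = 0.0564 by limma), as it was with only the 2 TG groups in the fit (-1.27, adjusted p = 0.0852 by limma) and with a block for the replicate number in the TG libraries alone (-1.29, adjusted p = 0.0648 by limma), but not with that block over all 16 libraries (-1.25, adjusted p = 0.0302 by limma). Bid shares 628 exonic bases (17.7%) with Bcl2l13 on the other strand, and the strand setting of the counting is not given in the sources used here. Bcl2l13 stood at a mean log2 RPKM of 1.26 in TG Me-X04- libraries and 0.43 in TG Me-X04+ cells and was not called.

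Bcl2l11, the gene of BIM (chr2:128126038-128162547, plus strand), read 2.75, 3.52, 3.28, 3.11 and 3.36 log2 RPKM in TG Me-X04- libraries 1 to 5 and 3.77, 2.84, 1.92 and 3.22 in TG Me-X04+ libraries 1 to 4. The TG Me-X04+ values spread more than the others (SD 0.78, against 0.29 in TG Me-X04- and 0.34 in WT) and lay on both sides of them. The log2FC was -0.27 (95% interval -0.92 to 0.39), with 2 of 4 animals higher.

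Of the pore formers, Bax (chr7:45461697-45466898, minus strand) had ranges that overlapped in all groups. It ran from 2.12 to 3.10 log2 RPKM in WT, from 2.17 to 3.4 in TG Me-X04- and from 2.37 to 2.93 in TG Me-X04+ libraries, on 61 to 250 reads. The log2FC between the TG groups was 0.04 (95% interval -0.54 to 0.62). Bax shares 192 exonic bases (12.2%) with Gm45808 on the same strand.

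Bak1 (chr17:27019810-27029009, minus strand) was uneven in the TG Me-X04+ group. Its libraries 1 to 4 read 0.27, 2.19, 3.96 and 3.51 log2 RPKM, against 2.20, 3.00, 3.39, 3.74 and 3.44 in TG Me-X04- libraries 1 to 5 and 2.44 to 3.58 in WT. No library of set A exceeded 3.00, and all of set B were above it. The TG groups differed by -1.37 within set A and by 0.21 within set B, and the log2FC over all libraries was -0.67 (95% interval -1.85 to 0.50). Part of its exons, 437 bases (18.2%), lies opposite those of Ggnbp1.

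The sets did not turn the direction of any of the 5 called members. Within set A, TG Me-X04+ minus TG Me-X04- was 1.73 for Bcl2, 1.09, 1.81 and 1.56 for Bcl2a1a, Bcl2a1b and Bcl2a1d, and -1.57 for Bid. Within set B these differences were 1.12, 1.22, 1.26, 1.55 and -0.95. With a term for the sets in the fit, all 5 were called, Bcl2 at 1.43 (adjusted p = 0.0101 by limma) and Bid at -1.23 (adjusted p = 0.00277 by limma). The sets were found on these same values, so such a term lowers the spread by construction. The p-values of that fit are therefore no added support. The number called fell to 3 with the animal as a block in the TG libraries alone, with only the 2 groups in the fit, with quantile normalization or with scaling by reads outside mitochondrial genes, and to 2 with weights for the libraries or without TG Me-X04+ 2. Quantile normalization ended the calls of Bcl2 and Bcl2a1a, as did scaling outside mitochondrial genes, and the weights ended those of the 3 A1 genes, with adjusted p between 0.0529 and 0.102 by limma in these fits.

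TG Me-X04- against WT microglia sets cells without the dye side by side, from animals that differ in both genotype and age by the labels. In that comparison 0 of the 10 members were called by limma, beside 0.201% of all genes called in either direction. By limma voom on the reads recovered from the values, the number was also 0. At an unadjusted p under 0.05, 1 member passed, Bcl2, as did 5.18% of all genes. Bcl2 was also the 1 member whose groups did not overlap, against 1.06% of all genes, with a log2FC of 1.06 (SE 0.34, 95% interval 0.34 to 1.78, adjusted p = 0.52 by limma). The A1 genes differed by 0.30, 0.19 and 0.24, and their intervals reached at most 0.82. For Bid the log2FC was -0.15 (95% interval -0.68 to 0.39), for Bcl2l11 it was 0.07 (-0.51 to 0.64) and for Bax it was -0.06 (-0.56 to 0.45). The intervals of the members that part by set were wider, from -1.68 to 0.93 around -0.38 for Mcl1, from -0.67 to 1.86 around 0.60 for Bcl2l1, and from -1 to 1.06 around 0.03 for Bak1. The median log2FC was 0.27 over the survival members, with the Bcl2a1 copies counted separately, and -0.01 over the death members, beside 0.01 over all genes.

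In TG Me-X04+ against WT microglia, which shares its TG Me-X04+ libraries with the first comparison, Bcl2 and the 3 A1 genes rose and Bid fell. That is 4 members beside 8.25% of all genes called higher and 1 beside 6.02% called lower. Bcl2 rose by a log2FC of 2.54 (SE 0.36, 5.83-fold, adjusted p = 0.00013 by limma), and by 3.15 within set A and 1.94 within set B. Bcl2a1a, Bcl2a1b and Bcl2a1d rose by 1.47, 1.77 and 1.82, with adjusted p from 0.000331 to 0.000734 by limma. Bid fell by 1.42 (SE 0.27, adjusted p = 0.00159 by limma). The members not called were Bcl2l1 (0.27, 95% interval -1.09 to 1.62), Mcl1 (-0.31, -1.71 to 1.09), Bcl2l11 (-0.20, -0.81 to 0.41), Bax (-0.02, -0.56 to 0.52) and Bak1 (-0.64, -1.74 to 0.46). The groups did not overlap for 4 members, against 10.5% of all genes. Bid overlapped, since TG Me-X04+ 4 at 2.09 lay above WT 3 at 1.99. The median log2FC was 1.62 over the survival and -0.42 over the death members, beside -0.11 over all genes. These counts and the survival median take the Bcl2a1 copies as separate members, though they share much of their sequence. Leaving out any library of the pair of groups left 5 members called.

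**Figure D4:**
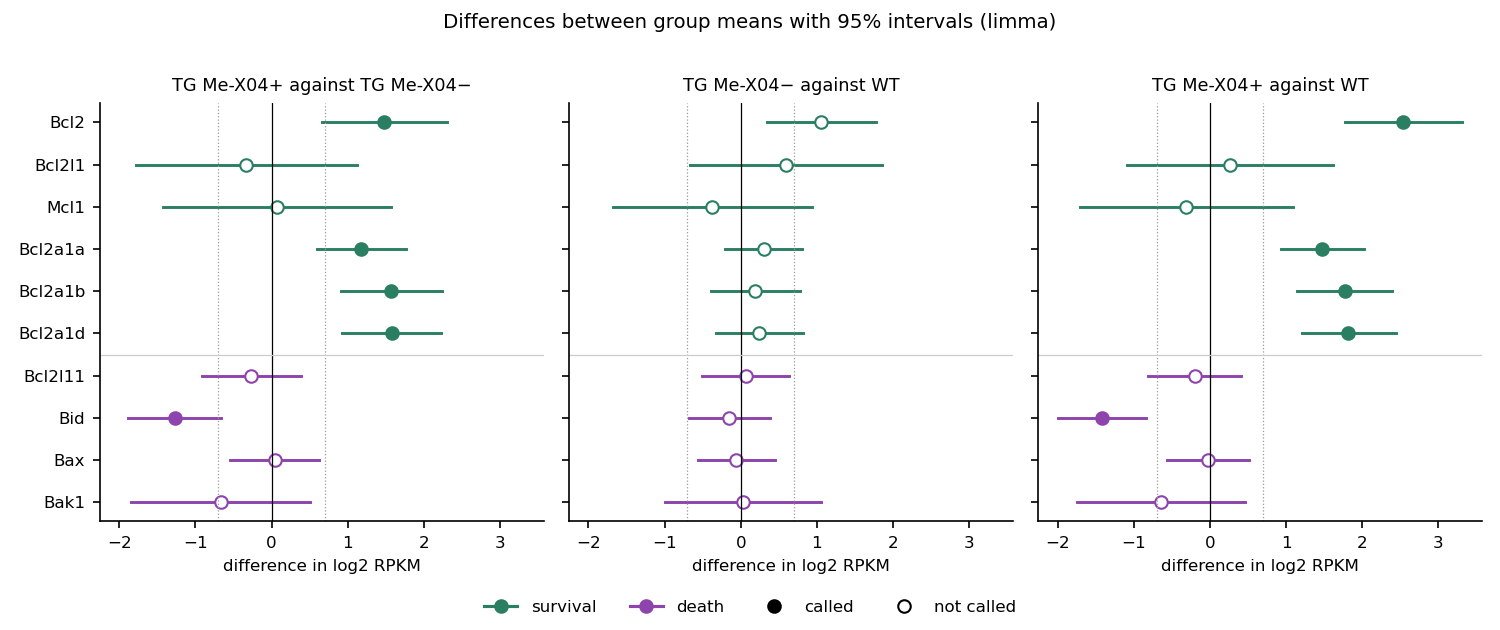
Difference in log2 RPKM between group means (horizontal axes) with 95% intervals for the 10 members in the 3 comparisons, survival members in green, death members in purple, filled where called, with dotted lines at the minimum fold of 0.7 in each direction. Bcl2, the Bcl2a1 genes and Bid are filled in both comparisons of TG Me-X04+ cells and open in TG Me-X04- against WT.

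Across the 16 libraries the members that differed between groups ran together or against each other. Pearson's r was 0.99 between Bcl2a1a and Bcl2a1d, 0.94 and 0.95 between Bcl2a1b and these, 0.72 to 0.77 between Bcl2 and the copies, and -0.78 between Bcl2 and Bid. Bid and Bcl2a1b had an r of -0.87. These values describe 16 libraries that share 3 groups and 2 sets, and the copies share much of their sequence. Mcl1 and Bcl2l1, the members that part by set, had an r of -0.72. The 3 genes most like each called member, among genes with a mean log2 RPKM of at least 0, were Gng12, Mir7117 and Cd274 for Bcl2 (r = 0.95 each). For Bid they were Ncr3-ps, Rptor and Hs6st1 (0.92 to 0.95). Beside each other, the A1 copies were most like the ribosomal protein pseudogenes Rps15a-ps7 and Rps15a-ps5 (0.97, with Bcl2a1a) and Rpl36a-ps3 and Rpl36a-ps1 (0.97 and 0.96, with Bcl2a1b), and Gm9794 and Gm15536 (0.97 and 0.96, with Bcl2a1d).

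Of the other genes of cell death and survival, 79 of 87 were listed in 7 lists. In TG Me-X04+ against TG Me-X04- cells none was called among 12 other BCL2 family genes, 16 genes of caspases and the apoptosome, 10 inhibitors of apoptosis and their antagonists, 13 genes of death receptors and necroptosis, 9 p53 and stress factors, and 10 outer membrane partners of BAX and BAK. The medians of these lists lay between -0.52 and 0.29 log2FC. Among 9 microglial survival receptors and ligands, 3 were called higher and none lower, with a median of 1.06. Over all 79 listed genes that is 3.8% called higher and 0% lower, beside 3.44% and 2.06% of all genes. Csf1, a ligand of Csf1r, rose by 3.08 (SE 0.29, adjusted p = 2.12e-05 by limma) from a mean log2 RPKM of 2.49 to 5.57. Trem2, a lipid receptor that sustains microglia, rose by 1.35 (SE 0.23, adjusted p = 0.0021 by limma), and Tgfbr2, a TGF-beta receptor, by 1.06 (SE 0.27, adjusted p = 0.0289 by limma). The receptor Csf1r itself read 9.26 and 9.37.

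**Figure D5:**
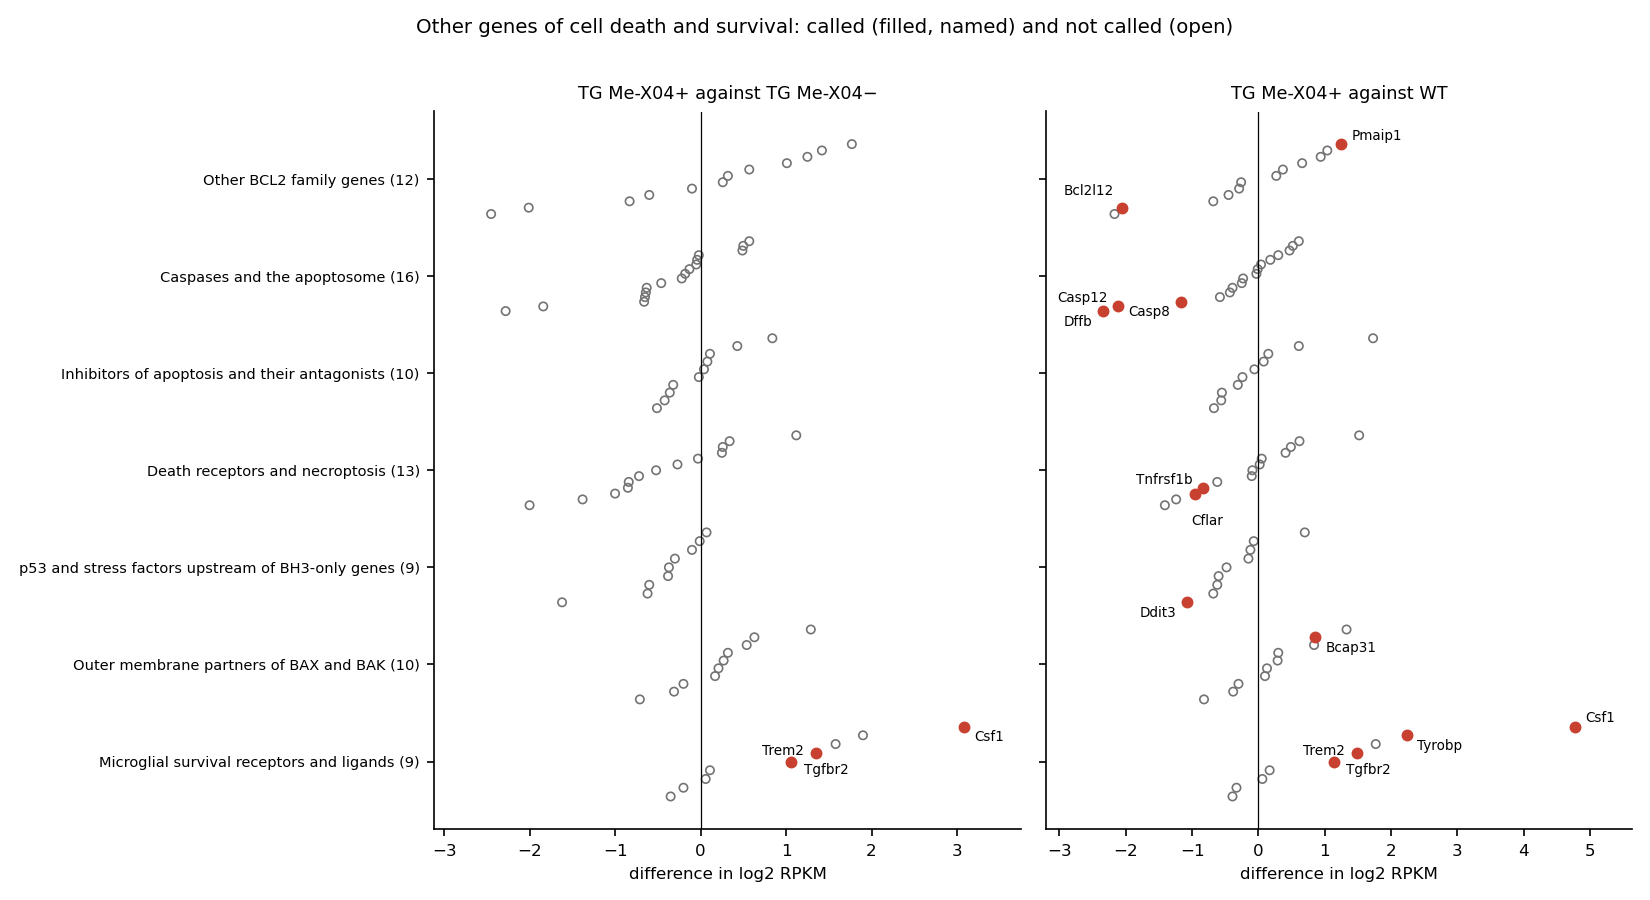
Difference in log2 RPKM (horizontal axes) of the listed genes of 7 lists (number of genes in brackets), 1 point per gene, spread vertically for legibility, with called genes filled and named, in TG Me-X04+ against TG Me-X04- cells (left) and against WT cells (right). On the left 3 genes are called, all in the list of survival receptors and ligands, and on the right calls appear in 6 of the 7 lists.

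Against WT, 6 of the 79 genes were called higher in TG Me-X04+ cells (7.59%) and 7 lower (8.86%), near the 8.25% and 6.02% of all genes. Pmaip1, the BH3-only gene of NOXA, rose by 1.25 (adjusted p = 0.0456 by limma) and Bcl2l12 fell by 2.05 (adjusted p = 0.0475 by limma), both close to the threshold. Casp8, the caspase that cuts BID, fell by 1.17 (SE 0.18, adjusted p = 0.000257 by limma), from a mean log2 RPKM of 6.40 in WT over 5.86 in TG Me-X04- to 5.23 in TG Me-X04+ cells. Casp12 and Dffb, an apoptotic nuclease gene, fell by 2.12 and 2.35, to a mean log2 RPKM of -2.47 and -2.93. They had few reads, at most 93 and 68 in a library. Of the death receptor list, Cflar, whose product holds caspase-8 in check, and the TNF receptor gene Tnfrsf1b fell by 0.95 and 0.84. Ddit3, the stress factor CHOP, fell by 1.08, and Bcap31 rose by 0.86. Csf1, Tyrobp, Trem2 and Tgfbr2 rose by 4.78, 2.24, 1.49 and 1.14. In TG Me-X04- against WT cells the 1 listed gene called was Csf1, which rose by 1.69.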

How the data were processed

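Microglia sorted from WT (7 libraries), TG Me-X04- (5) and TG Me-X04+ (4) samples, of 12 animals by their labels, were measured by RNA-seq. Per the study's methods and the submitters' processing notes, the authors trimmed reads with Trim Galore 0.4.4, aligned them to GRCm38 with STAR 2.5.4b, counted them per Gencode gene with featureCounts, filtered low genes and scaled with edgeR 3.24.3 (TMM). The authors deposited log2 RPKM per library and gene, with a small prior count. The deposited gene length was used to recover reads. The deposited table also holds columns of the authors' own comparisons (log2 fold changes, p-values and scores), which were not used. The counting of multi-mapped reads and the strand setting bear on the Bcl2a1 copies and on overlapping genes. Neither is given in the sources used here, so reads that match several copies may have been shared among them or dropped.

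Reads were recovered from the equal steps of the linear values (largest deviation from a whole read 2.42e-07). Libraries held 15623664 to 22119327 (WT), 17216633 to 25184600 (TG Me-X04-) and 22430251 to 27579017 (TG Me-X04+) reads on listed genes. The log2 values of all 17951 genes were fitted with limma 3.58.1 (R 4.3.3), 3 groups in 1 fit with a variance trend, and p-values were adjusted by Benjamini-Hochberg over all genes. Calls needed a log2FC of 0.7 or more in size with an adjusted p below 0.05. The procedure was tested on simulated data. Confidence intervals (95%) are unadjusted and come from the same fit. Symbols missing for 5032 genes were taken from the reference for 4874 of them. Sequences were read with Python 3.11.15 from GENCODE M21 and from RefSeq promoters, where all 10 members matched, with 13 promoters.

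Members and lists were chosen with earlier results of these data known. All members are given in each comparison. Of each list, up to 4 called genes with the largest change in TG Me-X04+ against TG Me-X04- were to be named, and the list genes named against WT were chosen after their values were seen. The 3 genes most like each called member were ranked by Pearson's r among genes with a mean log2 RPKM of at least 0.

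The labels give 1 animal for both TG libraries of a number. Their deviations from the group means correlated at r = 0.29 to 0.33 in 4 pairs, beside 0.22 to 0.33 for different animals of the same set and -0.35 to -0.18 across sets. WT libraries share numbers with TG libraries but not animals. Within a group each library is from its own animal by the labels, and litters are not given. The main fit took all libraries as separate, including both from the same TG animal, so its p-values measure the spread between these libraries. Alternatives covered the variance model, library weights, scaling, pseudocount, filters, groups in the fit, blocks, sets, voom on recovered reads and leaving out each library.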

Additional observations from a re-analysis of the deposited data

Results flagged for a closer look

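Of 30 groups of values (10 members in 3 groups), 5 held a library far from the others by Dixon's criterion, which by chance flags about 1 in 20 groups. Bcl2l1 in WT 3 stood at a log2 RPKM of -1.97, against 0.49 to 2.09 in the other WT libraries. In TG Me-X04- 5, Bcl2a1a stood at 2.81, against 3.73 to 4.03, and Bcl2a1d at 2.48, against 3.72 to 4.17. These copies share much of their sequence, so their values are not separate evidence. Bcl2a1b in WT 7 stood at 3.52, against 4.39 to 5.00. Bid in TG Me-X04- 4 stood at 2.56, above the other TG Me-X04- libraries at 2.24 to 2.33. What sets these libraries apart was not tested.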

How the results depend on the processing

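In TG Me-X04+ against TG Me-X04-, the 5 calls of members became 2 with library weights (arrayWeights), 3 with quantile normalization, 3 with scaling by reads outside mitochondrial genes, 3 with only the 2 groups compared, and 2 to 5 when each library was left out, with the 2 without TG Me-X04+ 2. The replicate number as a block gave 4 calls and lost Bcl2, at 1.45 (adjusted p = 0.0554 by limma). The replicate block in the TG libraries alone, which was chosen after seeing the data, gave 3 calls, lost Bcl2 and Bid, and turned Mcl1 to -0.08 and Bax to -0.06. The animal as a random block gave 5 calls. The block changed no other call among the members. In TG Me-X04- against WT the count was 0 in every alternative run, and in TG Me-X04+ against WT it was 4 to 5, with 4 where a filter left 8 members to test. The death median moved to -0.86 with scaling outside mitochondrial genes (TG Me-X04+ against TG Me-X04-) and to -0.85 within set A (TG Me-X04+ against WT). Members that were called in no comparison changed sign around 0 as follows. In TG Me-X04+ against TG Me-X04-, Mcl1 became -0.43 with quantile normalization, -0.32 with scaling outside mitochondrial genes, -0.18 with the replicate number as a block, -0.14 with a term for the sets, -0.08 within set A and -0.15 within set B, and ran from -0.31 to 0.41 with a library left out. Bax became -0.02 with quantile normalization, -0.35 with scaling outside mitochondrial genes, -0.01 with the replicate number as a block and -0.19 within set A, and ran from -0.06 to 0.24. Bcl2l11 became 0.17 within set A and ran from -0.54 to 0.08, and Bak1 became 0.21 within set B and ran from -1.17 to 0.07. In TG Me-X04- against WT, library weights gave Mcl1 0.01 and Bcl2l11 -0.07, scaling outside mitochondrial genes gave Bax 0.03, set A gave Bak1 -0.06, and set B gave Bcl2l11 -0.08. With a library left out, Bcl2l11 ran from -0.02 to 0.18, Bax from -0.26 to 0.05 and Bak1 from -0.11 to 0.27. Bid, not called there, became 0.06 within set A. In TG Me-X04+ against WT, library weights gave Bcl2l1 -0.10, Mcl1 0.03 and Bax 0.10, scaling outside mitochondrial genes gave Bcl2l1 -0.04, and voom gave Bax 0.03. Set A gave Bcl2l11 0.43, and set B gave Bax 0.22 and Bak1 0.27. With a library left out, Bcl2l1 ran from -0.23 to 0.58, Mcl1 from -0.69 to 0.03, Bcl2l11 from -0.48 to 0.14, Bax from -0.12 to 0.07 and Bak1 from -1.13 to 0.10. The cause of these changes was not tested. Of 863 combinations of a member, comparison and alternative, 787 kept direction and call. Bcl2 in TG Me-X04+ against WT moved by more than the spread within the sets (3.15 in set A and 1.94 in set B), and its lowest value was 1.59, with a pseudocount of 1. Few reads lie behind Bcl2l1 in WT 3 (16 reads), Bak1 in TG Me-X04+ 1 (37 reads) and Bax (61 to 250 reads).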

Other observations

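Within each library, Bcl2 could be set against the death members on the per-length scale. The difference of Bcl2 minus Bax in log2 RPKM was -3.77 to -2.38 in WT, -3.25 to -1.44 in TG Me-X04- and -1.69 to 0.57 in TG Me-X04+ libraries. Against Bcl2l11 it was -4.60 to -3.15, -3.12 to -1.70 and -1.54 to 0.10, so that the 3 groups did not overlap in that measure. The difference between the BH3-only genes, Bcl2l11 minus Bid, was 0.20 to 0.92 in WT, 0.44 to 1.26 in TG Me-X04- and 1.12 to 2.84 in TG Me-X04+ libraries. These measures reuse the values of Bcl2 and Bid given above and were not tested.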
